A study of Mus musculus with 9 samples.

Results

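Intestinal identity and absorptive transcription factors are described here as 8 genes: Hnf4a, Hnf4g, Cdx1, Cdx2, Gata4, Gata6, Klf4 and Klf5. They were found by matching these symbols to the Ensembl gene IDs of the count table through GENCODE M21, and all 8 were among its 21253 genes. RNA was sequenced from mouse AKP tumour organoids, which are tumour cells grown as small 3-dimensional bodies in culture. The labels do not give the alleles behind the name AKP. All 9 samples share this background and a short hairpin RNA against Apc that acts in the presence of doxycycline. The 3 controls stayed in doxycycline with Apc off, 3 samples were taken 2 days after doxycycline was withdrawn, and 3 were taken 7 days after. The submitters describe the later samples as Apc restored, at an early stage and a late stage of differentiation. Age, sex and the number of organoid lines are not given, and the replicates are labelled technical, so a p-value here covers no more than the variation among these libraries, possibly technical. Doxycycline withdrawal, Apc restoration and time coincide and cannot be told apart.

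These 8 proteins bind DNA and set which genes an intestinal epithelial cell can use. HNF4 alpha and HNF4 gamma are paired nuclear receptors that, in mouse, act together on genes of the absorptive brush border and of fat handling. CDX1 and CDX2 are homeobox factors, and CDX2 is needed in the mouse embryo for the gut lining to become intestine and not stomach or oesophagus. GATA4 and GATA6 are zinc finger factors, GATA4 being known for the identity of the proximal small intestine and GATA6 for being used along the whole intestine. KLF4 and KLF5 are Krüppel-like zinc finger factors, KLF4 known in differentiated cells and goblet cells and KLF5 in dividing crypt cells.

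Promoter sequence is shown for the members with a window in the set of RefSeq promoters used here (GRCm38.p6). These were Hnf4a and Klf4, whose RNA rose, and Cdx2, whose RNA did not pass the test. Hnf4g, Cdx1, Gata4, Gata6 and Klf5 had no window in that set. Each line holds the 250 bases before an annotated start, in the direction of transcription. Hnf4a has 2 such starts, the distal one being known as P2 and the proximal one as P1. Capitals mark the only match among 5 short motifs searched on both strands.
Hnf4a distal start, chr2:163506607-163506856, plus strand: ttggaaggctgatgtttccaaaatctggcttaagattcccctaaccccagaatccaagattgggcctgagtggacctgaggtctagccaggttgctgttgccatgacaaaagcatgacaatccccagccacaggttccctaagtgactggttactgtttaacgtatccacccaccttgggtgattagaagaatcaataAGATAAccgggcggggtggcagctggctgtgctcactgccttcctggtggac
Hnf4a proximal start, chr2:163546905-163547154, plus strand: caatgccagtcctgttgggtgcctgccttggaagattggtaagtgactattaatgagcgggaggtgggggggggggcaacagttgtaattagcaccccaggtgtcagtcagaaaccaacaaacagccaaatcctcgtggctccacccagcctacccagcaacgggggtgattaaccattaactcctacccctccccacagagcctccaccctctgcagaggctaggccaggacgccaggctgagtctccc
Cdx2, chr5:147307250-147307499, minus strand: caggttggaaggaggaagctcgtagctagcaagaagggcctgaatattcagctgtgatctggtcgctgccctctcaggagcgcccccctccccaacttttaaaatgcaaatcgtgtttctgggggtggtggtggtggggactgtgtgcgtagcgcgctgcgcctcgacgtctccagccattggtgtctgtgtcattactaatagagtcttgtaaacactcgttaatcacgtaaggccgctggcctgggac
Klf4, chr4:55532476-55532725, minus strand: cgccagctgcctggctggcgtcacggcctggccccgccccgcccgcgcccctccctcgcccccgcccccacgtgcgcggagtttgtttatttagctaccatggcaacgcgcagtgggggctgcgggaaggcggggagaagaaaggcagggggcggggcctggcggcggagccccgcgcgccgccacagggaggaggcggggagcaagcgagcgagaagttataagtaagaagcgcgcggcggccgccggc
The motif letters were CAAAGT for HNF4, CTTTGA for TCF/LEF, TTTATG for CDX, AGATAA for GATA and CACACCC for KLF factors. The match was AGATAA in the distal Hnf4a window, 52 bases before the RefSeq start. In GENCODE the Hnf4a gene begins at 163506808 and the Cdx2 gene, on the minus strand, at 147307270. Both positions lie inside the distal Hnf4a window and the Cdx2 window, so the 2 annotations differ in these starts. Of 32851 windows of this length, 12.6% held the HNF4 letters, 13.8% the TCF/LEF letters, 10.8% the CDX letters, 9.99% the GATA letters and 6.93% the KLF letters. The windows differed in base composition: G and C made up 51.2% and 57.6% of the distal and proximal Hnf4a windows, 55.2% of the Cdx2 window and 74.0% of the Klf4 window. The Klf4 window held 32 CG dinucleotides and the Cdx2 window 13, against 3 and 4 in the distal and proximal Hnf4a windows. Over all windows the quartiles were 45.2%, 52.4% and 61.2% for G and C, and 2, 6 and 16 for CG dinucleotides.

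The libraries held 24143589 to 32277040 counts, and 14925 to 15574 genes had a count in each. Apc, the gene the hairpin targets, stood at 6.8, 6.83 and 8.84 CPM in controls, at 31.8, 38.1 and 24.8 CPM after 2 days and at 67.9, 69.9 and 92.9 CPM after 7 days, with no overlap between groups. CPM is the count scaled to the effective size of its library. Among Wnt target genes, Axin2 averaged 70.5, 5.1 and 0.658 CPM and Ascl2 18.1, 0.95 and 0.0144 CPM in the same order, and all 7 Wnt targets tested of 10 listed fell at each time (edgeR's quasi-likelihood test, adjusted p under 0.05). All 7 epithelium markers were present, with summed levels of 9366 to 12436 CPM in controls, 14163 to 16242 CPM after 2 days and 25662 to 35107 CPM after 7 days. Krt19, Krt8 and Cldn3, which are keratins and a tight junction protein, rose at 7 days. Many markers of other cells, but not all, were low: 5 of 10 mesenchyme, 7 of 10 immune and 4 of 7 endothelium markers had under 10 counts in every sample. The 10 mesenchyme markers summed to 46.8 to 56.3 CPM in controls, 39.1 to 50.2 CPM after 2 days and 25.7 to 36.8 CPM after 7 days. Of the 4 that were tested against controls, 2 fell at both times, 1 rose at 7 days and 1 did not pass the test. Most of the sum was Acta2, which did not pass the test against controls, and Vim, and Lum was at 0 in every sample. Acta2 was called lower at 7 days against 2 days (log2 -0.35 ± 0.13, edgeR adjusted p = 0.024). It averaged 34.2 CPM in controls, above 76.0% of all genes tested in CPM per kilobase of exon. Vim, an intermediate filament gene, fell at both times and averaged 17.8 CPM in controls, 5.46 CPM after 2 days and 0.988 CPM after 7 days. Pdgfrb, a receptor of pericytes named after its values were seen, rose at 7 days, with 39 counts over the 7-day samples against 1 count over the controls (edgeR adjusted p = 3.7e-06). The 10 immune markers summed to 9.55 to 11.4, 21.1 to 21.5 and 23.1 to 28.1 CPM in the same order. Most of that was Cd14, a receptor for bacterial lipopolysaccharide, which rose at both times. In CPM per kilobase of exon Cd14 was above 52.2% of all genes tested in controls, 69.3% after 2 days and 69.4% after 7 days. Of the 3 immune markers tested, 1 rose at 2 days and all 3 at 7 days. Beside the counts of Wnt targets and markers given here, 13.1% of all genes tested rose and 10.6% fell at 2 days. At 7 days 40.5% rose and 41.8% fell. Csf1r had 73 counts over the 7-day samples against 2 counts over the controls (edgeR adjusted p = 1.9e-07). Cd68 averaged 3.36 CPM at 7 days against 1.11 CPM in controls (adjusted p = 6.1e-06). Csf1r and Cd68 were named after their values were seen. The 7 endothelium markers summed to 1.7 to 2.1, 1.29 to 1.73 and 1.92 to 2.97 CPM, with Emcn at 0. The 2 endothelium markers tested were not called against controls at either time. Both were called higher at 7 days against 2 days, as were 39.2% of all genes tested. The part of these markers in the results below was not tested.

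Of the 8 transcription factor genes, 7 passed the filter on low counts and Cdx1 did not. At 2 days 4 of the 7 rose against controls (Hnf4a, Hnf4g, Klf4 and Klf5), with a median log2 change over the 7 of 0.36. Among all 12535 genes tested, 23.7% were called in that comparison, 13.1% higher and 10.6% lower, with a median of -0.00. At 7 days 6 of the 7 rose against controls, all but Cdx2, with a median of 1.59. In that comparison 82.3% of all genes were called, 40.5% higher and 41.8% lower, with a median of -0.03. Between 7 and 2 days the same 6 genes were higher at 7 days, with a median of 1.14, where 79.1% of all genes were called, 39.2% higher and 39.9% lower. Libraries scaled by size alone moved the median of all genes by -0.40 at 7 days against controls. They also turned the split of calls into 3675 higher and 6876 lower, against 5080 higher and 5237 lower with TMM (trimmed mean of M-values) factors. With that scaling the 7-day changes of Gata4 and Klf5 against controls were 0.46 and 0.40, against 0.87 and 0.80 with TMM, and both were still called. In bulk RNA, fewer cells of a type and less RNA per cell cannot be told apart.

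**Figure D1:**
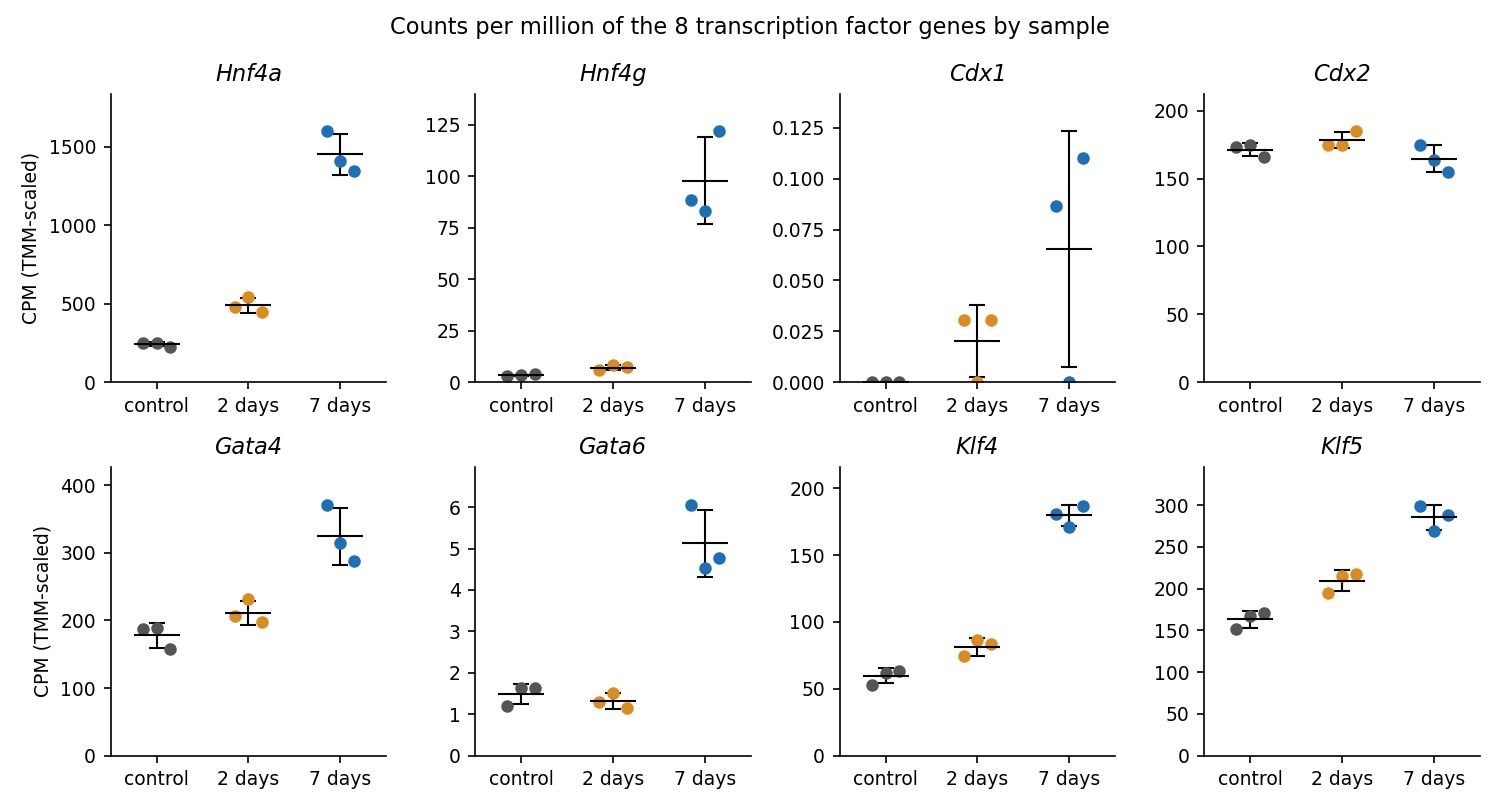
CPM on the TMM-scaled library (y axis, own scale per gene, from 0) for the 8 genes in controls, at 2 days and at 7 days (x axis). Points are samples and bars the mean ± SD of 3. Hnf4g lies under 10 CPM in the first 2 groups and at 83.3 to 122 CPM at 7 days, Cdx2 lies at 155 to 185 CPM in all 9 samples, and the Cdx1 values rest on 0 to 3 counts.

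Hnf4a (ENSMUSG00000017950, chromosome 2, 163506808 to 163572910, plus strand, GRCm38) was the most abundant of the 8 at both times after withdrawal. It stood at 252, 247 and 227 CPM in controls, at 477, 544 and 448 CPM after 2 days and at 1598, 1409 and 1342 CPM after 7 days. No sample of one group overlapped another group. Means were 242 ± 12.9, 489.9 ± 49.3 and 1449.8 ± 133 CPM (SD, n = 3 each). The rise was 2.02-fold at 2 days (log2 1.02 ± 0.10 SE, edgeR adjusted p = 1.7e-06) and 5.99-fold at 7 days (2.58 ± 0.10, adjusted p = 3.7e-12). The 2-day change was larger than that of 95.8% of all genes tested, and the 7-day change larger than that of 91.9%. An antisense gene, Hnf4aos, overlaps its span, and the library kit does not mark strand. Of 4773 distinct 50-base stretches of annotated Hnf4a transcripts, 0 occur in transcripts of another gene on either strand. Reads from any unannotated overlap cannot be told apart.

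Hnf4g (ENSMUSG00000017688, chromosome 3, 3508030 to 3658052, plus strand) rose more than any other of the 7 tested at 7 days, with a low level in controls. It stood at 3.24, 3.36 and 3.73 CPM in controls, at 5.94, 8.17 and 7.18 CPM after 2 days and at 88.3, 83.3 and 122 CPM after 7 days. The counts behind these values were 84 to 117 in controls, 194 to 236 after 2 days and 2041 to 3334 after 7 days. A pseudogene, Gm37000, lies within its span, and 0 of 2580 distinct 50-base stretches of Hnf4g occur in another gene. Again no sample overlapped another group, and replicate 3 was the highest at 7 days. The rise was 2.05-fold at 2 days (log2 1.04 ± 0.18, edgeR adjusted p = 0.00048) and 28.4-fold at 7 days (4.83 ± 0.17, adjusted p = 7.3e-13). Between 7 and 2 days it was 13.8-fold (3.79 ± 0.15, adjusted p = 6.8e-12), against 2.96-fold for Hnf4a (1.57 ± 0.10, adjusted p = 1.1e-09). In all, 396 of the 12535 genes had a larger log2 change than Hnf4g at 7 days, and 1011 had a larger one than Hnf4a.

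Hnf4g took a larger share of the HNF4 pair in every 7-day sample than in any other sample. Counts per exon length of Hnf4g over those of Hnf4a gave ratios of 0.0236, 0.025 and 0.0301 in controls, 0.0229, 0.0275 and 0.0294 at 2 days and 0.101, 0.108 and 0.167 at 7 days. Hnf4g thus made up 2.31% to 2.92%, 2.24% to 2.86% and 9.21% to 14.3% of the pair. The 7-day ratio was 4.69-fold that of controls (log2 difference 2.23), with no overlap between the samples. The exact two-sided permutation test gave p = 0.1, the smallest that 3 against 3 samples allow, and 0.129 adjusted over 9 ratio tests. The 2-day ratio differed from that of controls by 0.02 on the log2 scale (exact permutation p = 1), less than the spread between samples.

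Cdx2 was tested and not called at either time, and Cdx1 was too rare to test. Cdx2 (ENSMUSG00000029646, chromosome 5, 147300805 to 147307270, minus strand) stood at 173, 175 and 166 CPM in controls, at 175, 175 and 185 CPM after 2 days and at 175, 164 and 155 CPM after 7 days. The samples of the 3 groups overlapped. Its log2 change was 0.06 ± 0.07 at 2 days (edgeR adjusted p = 0.64) and -0.06 ± 0.07 at 7 days (adjusted p = 0.46), neither past the test. With libraries scaled by size alone the 7-day change became -0.46 (adjusted p = 8.7e-06) where the median of all genes moved by -0.40, and with upper-quartile factors it became -0.16 (adjusted p = 0.042) where the median moved by -0.10. Cdx2 was above 94.9% of all genes tested in level per exon length in controls, 95.2% after 2 days and 93.5% after 7 days.

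Cdx1 (ENSMUSG00000024619, chromosome 18, 61018862 to 61036199, minus strand), the paralog of Cdx2 known from crypt cells, was at or near 0. It had 0 counts in all 3 controls, 1, 0 and 1 counts at 2 days and 2, 0 and 3 counts at 7 days. A count of 0 over the controls allows up to 0.0337 CPM, taking 3 counts as the limit and covering counting error only. The sums of 2 counts at 2 days and 5 counts at 7 days lie near the same limit (0.0319 and 0.039 CPM in those groups), and the gene was not tested after the filter. In a fit with no filter its adjusted p at 7 days was 0.045 by edgeR, on those 5 counts against 0, and at 2 days it was 0.46. The other family member, Cdx4, had 0 counts in every sample.

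Both GATA genes rose at 7 days and neither passed the test at 2 days. Gata4 (ENSMUSG00000021944, chromosome 14, 63198922 to 63271692, minus strand) stood at 187, 189 and 157 CPM in controls, at 206, 231 and 197 CPM after 2 days and at 371, 314 and 288 CPM after 7 days. Every 2-day sample was above every control, yet the 1.19-fold difference did not pass the test (log2 0.25 ± 0.10, edgeR adjusted p = 0.1). It did pass in 5 of 19 alternatives, which are given with the processing. The 7-day rise was 1.83-fold (0.87 ± 0.11, adjusted p = 1.7e-06).

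Gata6 (ENSMUSG00000005836, chromosome 18, 11052064 to 11085635, plus strand) was the rarest of the 7 tested. It stood at 1.2, 1.64 and 1.63 CPM in controls, at 1.29, 1.52 and 1.14 CPM after 2 days and at 6.06, 4.54 and 4.77 CPM after 7 days, from 31 to 57, 37 to 44 and 121 to 140 counts. The 2-day and control samples overlapped (log2 -0.20 ± 0.21, edgeR adjusted p = 0.54). At 7 days it was 3.39-fold above controls (1.76 ± 0.18, adjusted p = 1.7e-07) and 3.89-fold above 2 days (1.96 ± 0.18, adjusted p = 7.2e-08). An antisense gene that overlaps it, 1010001N08Rik, had 0 to 3 counts per sample, and 0.682% of the 50-base stretches of Gata6 also occur in that gene. Gata4 was far the more abundant of the pair: counts per exon length of Gata4 were 260, 192 and 160 times those of Gata6 in controls, 268, 253 and 289 times at 2 days and 102, 115 and 101 times at 7 days. The 7-day ratio was 0.528 of that in controls (log2 difference -0.92, exact permutation p = 0.1, adjusted 0.129), without overlap. The 2-day ratio was 1.34-fold that of controls, with overlapping samples (exact permutation p = 0.2, adjusted 0.225).

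Both Krüppel-like genes rose at each time. Klf4 (ENSMUSG00000003032, chromosome 4, 55527143 to 55532466, minus strand) stood at 53.2, 62.0 and 63.6 CPM in controls, at 74.2, 86.8 and 83.2 CPM after 2 days and at 181, 171 and 187 CPM after 7 days, with no overlap between groups. The rise was 1.37-fold at 2 days (log2 0.45 ± 0.09, edgeR adjusted p = 0.0015) and 3.01-fold at 7 days (1.59 ± 0.09, adjusted p = 1.8e-10). Klf5 (ENSMUSG00000005148, chromosome 14, 99298691 to 99315036, plus strand) stood at 152, 167 and 170.3 CPM in controls, at 195, 215 and 218 CPM after 2 days and at 299, 269 and 288 CPM after 7 days. Its groups did not overlap either, and the rise was 1.28-fold at 2 days (0.36 ± 0.08, adjusted p = 0.0041) and 1.75-fold at 7 days (0.80 ± 0.08, adjusted p = 1.7e-07). Between 7 and 2 days it was 1.36-fold higher (0.45 ± 0.08, adjusted p = 0.0001), a call lost when libraries were scaled by size alone (log2 0.03, adjusted p = 0.75), where the median of all genes moved by -0.42.

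Klf4 was below Klf5 per exon length in every control and 2-day sample and above it in every 7-day sample. Per exon length, Klf4 was 0.596, 0.632 and 0.637 of Klf5 in controls, 0.649, 0.689 and 0.653 at 2 days and 1.03, 1.08 and 1.11 at 7 days. Klf4 made up 50.8% to 52.6% of the pair at 7 days, against 37.3% to 38.9% in controls. The 7-day ratio was 1.73-fold that of controls (log2 difference 0.79) and the 2-day ratio 1.07-fold (0.09). Of the 50-base stretches of Klf4 and Klf5, 0.263% and 0.0777% also occur in another gene. Neither comparison had overlapping samples, and both gave the smallest exact permutation p of 0.1 (0.129 adjusted over the 9 ratio tests). Goblet cell markers moved at the same times: all 8 rose at 2 days and at 7 days, against 13.1% and 40.5% of all genes tested. Their summed levels were 47.7 to 53.0 CPM in controls, 230.4 to 249 CPM after 2 days and 3357 to 4045 CPM after 7 days. Zg16, a goblet granule lectin, averaged 360.0 CPM at 7 days against 1.7 CPM in controls, and Clca1 44.0 against 0.916 CPM. Fcgbp and Tff3, both secreted with mucus, reached 2211 and 910.0 CPM at 7 days, against 18.9 and 10.9 CPM in controls. Their part in the Klf4 values was not tested.

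**Figure D2:**
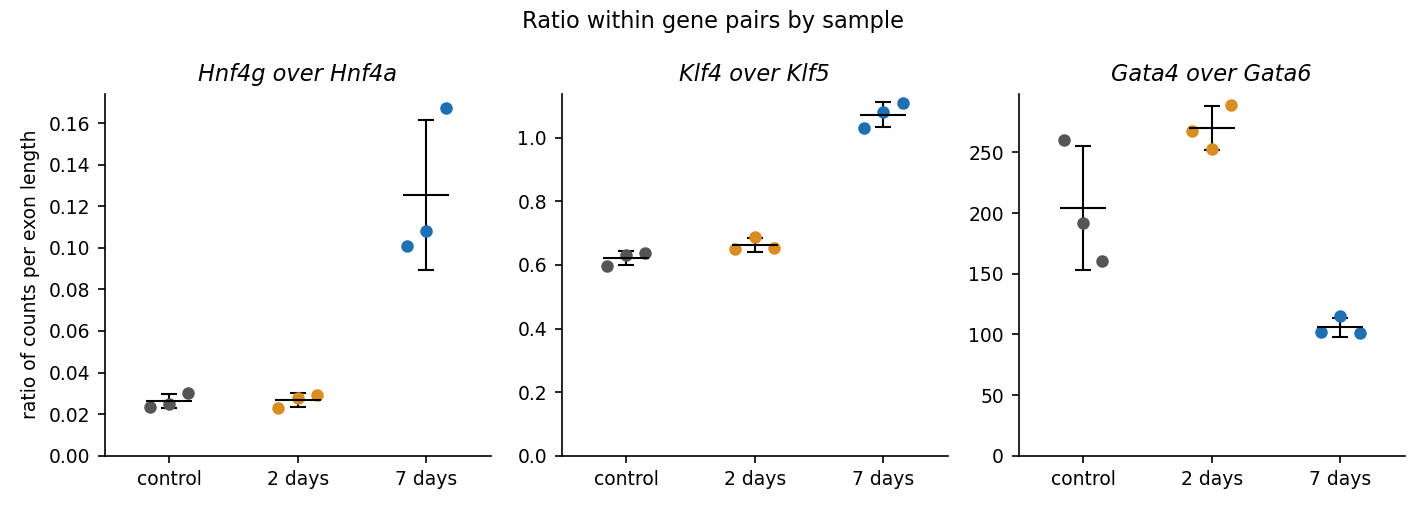
Ratio of counts per exon length within 3 gene pairs (y axis, from 0), by group (x axis), with points for samples and bars for the mean ± SD of 3. The 7-day samples lie above the others for Hnf4g over Hnf4a (0.101 to 0.167) and Klf4 over Klf5 (1.03 to 1.11), and below them for Gata4 over Gata6 (101 to 115).

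The 2 times after withdrawal were compared with the same controls, so their values are given side by side. Klf5 had 44.3% of its 7-day log2 change at 2 days and Hnf4a 39.4%, while Gata4 had 28.8%, Klf4 28.2% and Hnf4g 21.5%. With libraries scaled by size alone, which lowers the 7-day changes, the shares were 92.8% for Klf5, 57.8% for Gata4, 47.5% for Hnf4a, 39.0% for Klf4 and 23.8% for Hnf4g, so the order of Gata4 and Hnf4a depends on the scaling. Gata6 lay on the other side of 0 at 2 days. Between 7 and 2 days Klf4 was 2.21-fold higher at 7 days (log2 1.14 ± 0.09, edgeR adjusted p = 1e-08) and Gata4 1.54-fold higher (0.62 ± 0.10, adjusted p = 6.5e-05). With libraries scaled by size alone these log2 differences were 0.73 for Klf4 and 0.20 for Gata4. Cdx2 did not pass the test between 7 and 2 days (-0.11 ± 0.07, adjusted p = 0.17).

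**Figure D3:**
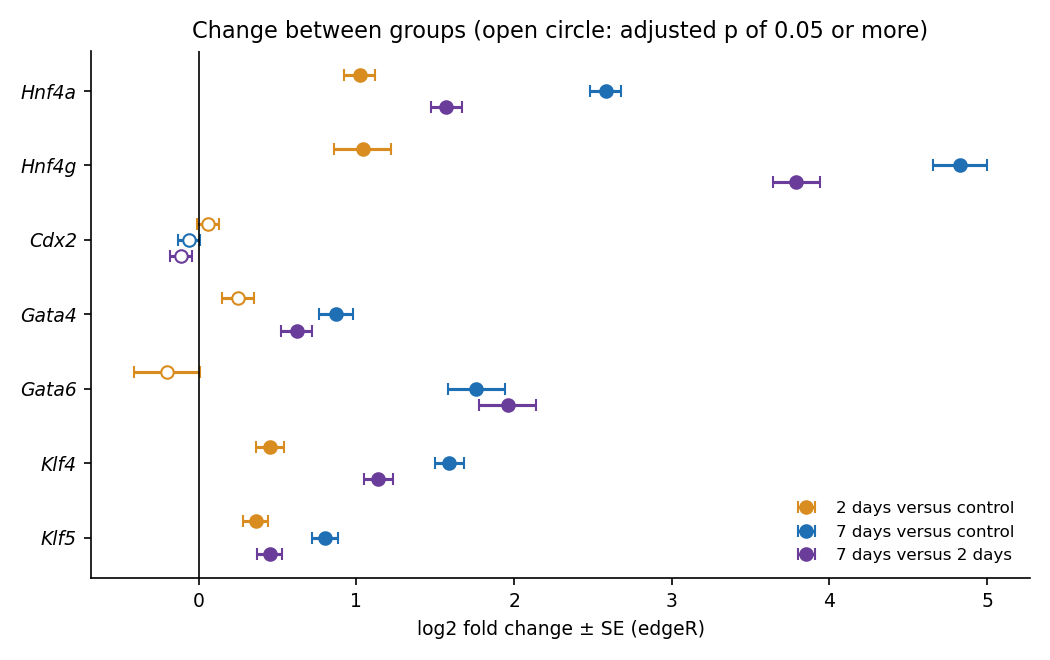
Log2 fold change with its SE (x axis) of the 7 tested genes (y axis) in the 3 comparisons; open circles mark an adjusted p of 0.05 or more in edgeR. Hnf4g at 7 days lies farthest out at 4.83, and all 3 Cdx2 values lie between -0.11 and 0.06.

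Levels between genes were compared as CPM per kilobase of exon. In controls the order ran Cdx2 at 75.8 ± 2.13, Hnf4a at 50.1 ± 2.68, Gata4 at 45.5 ± 4.56, Klf5 at 31.4 ± 1.86, Klf4 at 19.5 ± 1.83, Hnf4g at 1.31 ± 0.0963 and Gata6 at 0.229 ± 0.0388 (SD, n = 3 each). Samples of Hnf4a and Gata4 overlapped there and other neighbours did not. At 2 days Hnf4a led with 101 ± 10.2, ahead of Cdx2 with 78.8 ± 2.46, and no neighbours overlapped. At 7 days Hnf4a stood at 300.3 ± 27.5, above Gata4 at 83.1 ± 10.9 and Cdx2 at 72.8 ± 4.41, which overlapped each other. Klf4 at 58.9 ± 2.67 and Klf5 at 54.8 ± 2.84 overlapped as well, and Hnf4g at 37.2 ± 8.05 came after them. Hnf4g was above 26.4% of tested genes in this measure in controls, 37.4% at 2 days and 87.8% at 7 days. Gata6 was above 18.1% at 7 days, and Cdx1 stayed last in each group.

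**Figure D4:**
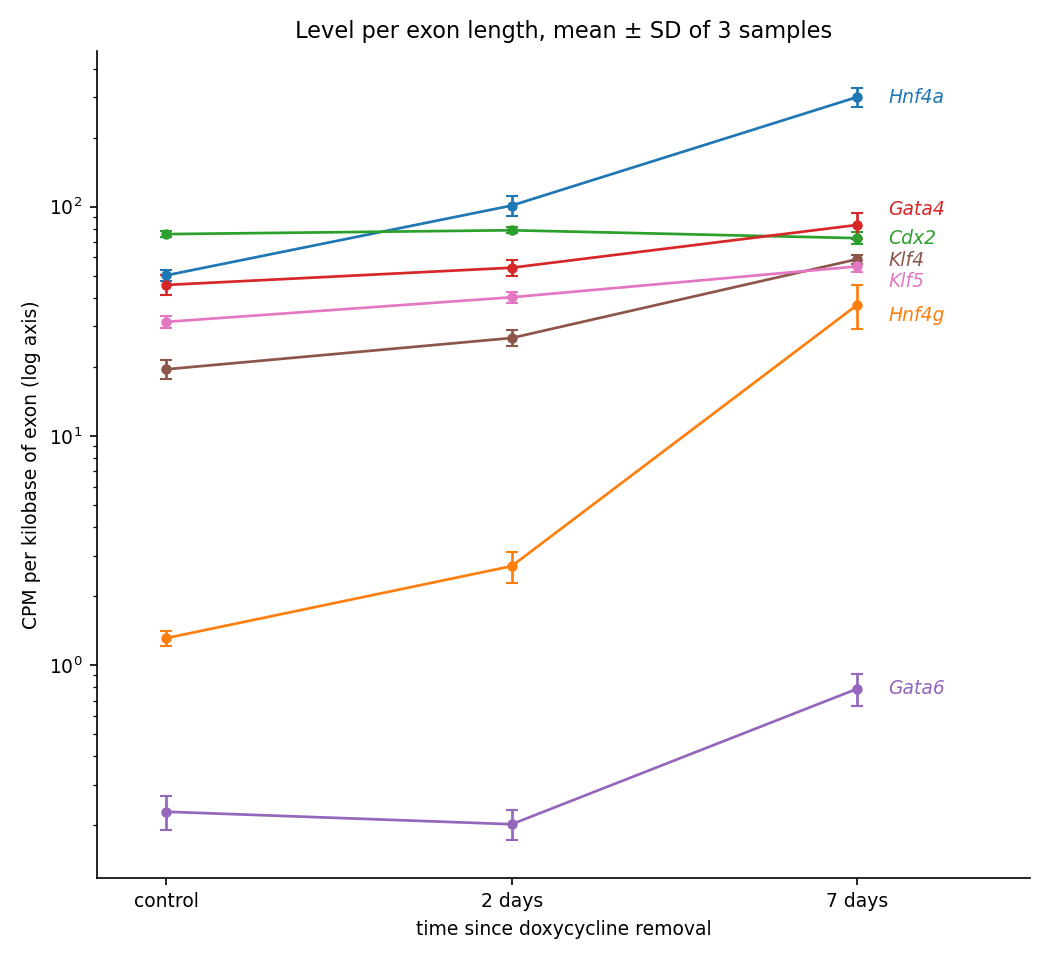
CPM per kilobase of exon (y axis, log scale) of the 7 tested genes in controls, at 2 days and at 7 days (x axis, categories not spaced by time), mean ± SD of 3 samples. Hnf4a passes Cdx2 by 2 days, Hnf4g climbs to 37.2 at 7 days, and Gata6 stays under 1.

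Genes of absorptive cells, of which HNF4 factors are known regulators in mouse, rose with time. Of 29 listed, 14 rose and 1 fell at 2 days, and all 29 rose at 7 days, where 13.1% and 40.5% of all genes tested rose. Median log2 changes of the list were 0.91 and 7.15, beside -0.00 and -0.03 over all genes tested. Both medians of the list were the same when genes with 0 counts in controls were set at a limit of 3 counts over the group. Genes where both groups had at most 3 counts were left out there. At 2 days the leading rises were in Krt20, a keratin of differentiated cells (23.0 CPM against 2.95 CPM in controls, log2 2.98 ± 0.16, edgeR adjusted p = 3.2e-09), and Npc1l1, the cholesterol uptake transporter (5.39 against 0.798 CPM). The gene that fell was Cdhr2, a cadherin of the brush border, at 85.2 CPM at 2 days against 129.6 CPM in controls (log2 -0.61 ± 0.12, adjusted p = 0.0018). It was at 772 CPM at 7 days. Apoa4, an apolipoprotein of fat absorption, averaged 2250.2 CPM at 7 days against 0.433 CPM in controls. Apoc3, another apolipoprotein, averaged 189 CPM against 1 count in the 3 controls together, and Treh, which digests trehalose, averaged 37.6 CPM against 0 counts.

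Other transcription factors of the intestinal epithelium went both ways. Of 26 listed 25 were tested: 8 rose and 5 fell at 2 days, and 18 rose and 5 fell at 7 days. Among all genes tested, 13.1% rose and 10.6% fell at 2 days, and 40.5% rose and 41.8% fell at 7 days. Median log2 changes of the list were 0.19 and 1.92. The 5 falls at 2 days became 3 without control replicate 2, without 2-day replicate 2 or without 2-day replicate 3. Creb3l3, which acts on genes of triglyceride handling, rose most at 7 days (192 CPM against 0.265 CPM in controls, log2 9.51 ± 0.17, edgeR adjusted p = 8.1e-16). Ppara, a receptor that drives fat oxidation, averaged 8.88 CPM against 0.108 CPM in controls, and Nr1i2, the xenobiotic receptor PXR, 34.1 against 0.515 CPM. Nr1h4, the bile acid receptor FXR, and Pparg, a fatty acid receptor, led the rises at 2 days among genes with at least 5 CPM, at 10.6 against 3.22 CPM and 39.2 against 18.3 CPM.

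Among genes with at least 5 CPM in the higher group, the falls were smaller than the largest rises. Larger 2-day falls than those below were called in Prdm1 (-0.98, edgeR adjusted p = 0.0055) and Vdr (-0.81, adjusted p = 0.011). Both genes were under that level at 2 days and in controls and are named here after their values were seen. Both were called higher than controls at 7 days. Prdm1 then averaged 4.88 against 1.73 CPM (1.47 ± 0.18, adjusted p = 2.1e-06) and Vdr 14.2 against 2.24 CPM (2.67 ± 0.16, adjusted p = 4.8e-10). At 7 days Grhl2, which acts on epithelial junction genes, averaged 18.7 CPM against 39.3 CPM in controls (log2 -1.07 ± 0.08, edgeR adjusted p = 7e-09). Ehf, an epithelial ETS factor, averaged 66.0 against 117 CPM (-0.83 ± 0.09, adjusted p = 6.7e-07). Maf, a factor of mature enterocytes in mouse, was lower at 2 days (3.63 CPM against 5.73 CPM in controls, -0.65 ± 0.15, adjusted p = 0.0061) and higher at 7 days (30.8 CPM, 2.43 ± 0.13, adjusted p = 1.6e-10). Foxa3, a forkhead factor, was at 15.9 CPM at 2 days against 21.8 CPM in controls (-0.45 ± 0.12, adjusted p = 0.013), a call lost without control replicate 2 (adjusted p = 0.07) or without 2-day replicate 2 (adjusted p = 0.064). Pdx1, a factor of the duodenum and pancreas, had no more than 1 count in any group.

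Relatives of the members were also scored, namely other CDX, GATA and KLF genes and the GATA partners of the FOG family. Of 22 listed 14 were tested, 5 rose at 2 days, and 11 rose and 2 fell at 7 days, with medians of 0.28 and 0.81. With libraries scaled by size alone 8 rose and 2 fell at 7 days. Over all genes tested, 13.1% rose at 2 days, and 40.5% rose and 41.8% fell at 7 days with TMM. Zfpm1, which encodes the GATA cofactor FOG1, averaged 72.5 CPM in controls, 117 CPM after 2 days and 169 CPM after 7 days (log2 0.69 ± 0.10 and 1.22 ± 0.10, edgeR adjusted p = 0.00011 and 1.8e-08). Klf6 averaged 133 CPM in controls, 205 CPM after 2 days and 183 CPM after 7 days. Its 7-day change (0.46 ± 0.08, adjusted p = 0.00014) became 0.06 (adjusted p = 0.61) under library size alone. Klf7 and Klf11 rose at 7 days, to 7.74 and 7.24 CPM, against 2.73 and 2.99 CPM in controls. Klf16 fell at 7 days to 38.1 CPM, against 67.3 CPM in controls (-0.82 ± 0.10, adjusted p = 2.8e-06).

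Stomach genes were scored because loss of CDX2 in mouse gut gives stomach features. Of 15 listed 9 were tested, 8 rose at 2 days and all 9 tested rose at 7 days, with medians of 1.83 and 5.19. Libraries scaled by size alone gave 8 rises at 7 days. With TMM, 13.1% of all genes tested rose at 2 days and 40.5% at 7 days. Anxa10, an annexin of gastric epithelium, averaged 1.62 CPM in controls, 8.17 CPM after 2 days and 59.1 CPM after 7 days (log2 2.34 ± 0.15 and 5.19 ± 0.14, edgeR adjusted p = 2.4e-08 and 4e-14). Vsig1, a junction protein of stomach epithelium, averaged 5.58, 19.8 and 51.5 CPM in the same order. Tff1, secreted by gastric surface cells, averaged 56.3 CPM at 7 days against 0.287 CPM in controls, Gkn2 11.4 against 0.0781 CPM, and Ctse 7.84 against 0.0781 CPM. The stomach factors Sox2 and Barx1 had 0 counts in every sample, and the whole list summed to 10.9 to 11.8 CPM in controls, 35.6 to 36.5 CPM after 2 days and 224 to 227 CPM after 7 days. Cdx2 was at 155 to 175 CPM in the same 7-day samples.

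Of 10 cell cycle genes linked to KLF4 and KLF5, 1 rose and 2 fell at 2 days, and 2 rose and 7 fell at 7 days. Their median log2 changes were -0.15 and -1.21. Beside these, 13.1% of all genes tested rose and 10.6% fell at 2 days, and 40.5% rose and 41.8% fell at 7 days. Cdkn1a, a cell cycle inhibitor that KLF4 is known to activate, averaged 211 CPM at 7 days against 20.5 CPM in controls (log2 3.37 ± 0.13, edgeR adjusted p = 2.7e-12). At 2 days it averaged 15.9 CPM and did not pass the test (-0.36 ± 0.13, adjusted p = 0.056), but it was called lower under 8 of 19 alternatives (adjusted p of 0.004 to 0.041). Ccnb1 and Ccne1, cyclins of mitosis and of S phase entry, averaged 63.2 and 8.66 CPM at 7 days against 309 and 32.7 CPM in controls. Ccnd1, a cyclin of the G1 phase, averaged 900.0 CPM in controls, 634 CPM after 2 days and 376 CPM after 7 days (-0.51 ± 0.08 and -1.26 ± 0.08, adjusted p = 0.00024 and 9.9e-10). Its relative Ccnd2 was lower at 2 days (422 against 529.6 CPM in controls, log2 -0.33 ± 0.08, adjusted p = 0.0054) and higher at 7 days (651 CPM, log2 0.30 ± 0.08, adjusted p = 0.0021). That 7-day change was -0.10 under library size alone, where the median of all genes moved by -0.40. Cdkn1b, another inhibitor, was the gene that rose at 2 days (71.3 against 60.0 CPM, 0.25 ± 0.07, adjusted p = 0.024). The call was lost without control replicate 1, control replicate 2 or 2-day replicate 3, with adjusted p of 0.09, 0.11 and 0.077.

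**Figure D5:**
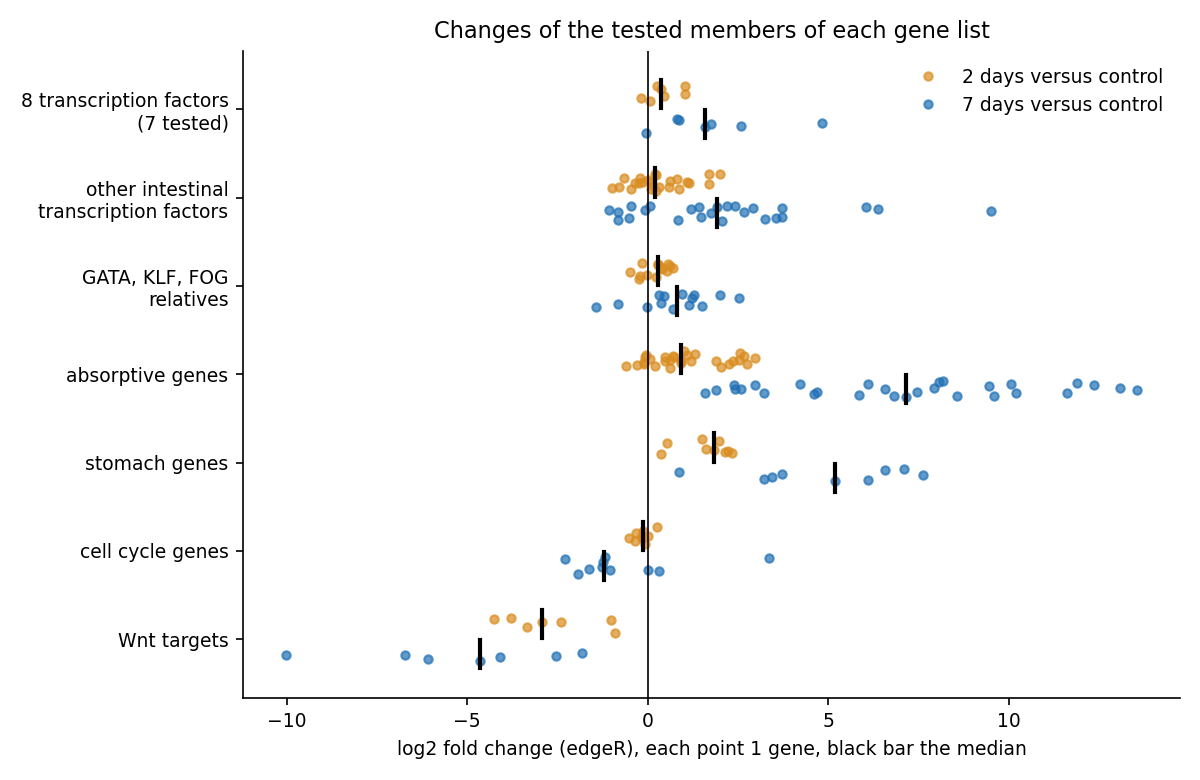
Log2 fold change (x axis) of each tested gene of 7 lists (y axis) at 2 days and at 7 days against controls, with a black bar at the median; values of genes with few or 0 control counts are fitted ones. The medians of the 8 transcription factors (7 tested) are 0.36 and 1.59, those of the absorptive genes 0.91 and 7.15 and those of the Wnt targets -2.93 and -4.65.

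The genes whose pattern over the 9 samples was most like each member's were found by Pearson's r of log2(CPM + 1) among 10005 genes. The 9 points fall into 3 groups and share libraries, so r mainly describes the steps between groups. It does not measure how large the steps are. Nearest to Hnf4a were Eps8l3 (r = 0.999), Themis3 (0.999) and Slc37a1 (0.998), and nearest to Hnf4g were Dsc2 (0.999), Abcb1a (0.998) and Samd9l (0.998). Eps8l3 averaged 45.1, 89.8 and 292 CPM in controls, at 2 days and at 7 days, steps close to those of Hnf4a. Dsc2 averaged 71.2, 87.5 and 214 CPM in the same order, in relative terms far smaller steps than those of Hnf4g. Nearest to Gata4 were Tmem63a (0.995), Ppard (0.994) and Map3k11 (0.993), and near Gata6 were Rhbdd1 (0.995) and Slc2a8 (0.993). Nearest to Klf4 were Pgm2, Naip5 and Ugt2b34 (0.997 each), and to Klf5 Ick (0.992), Mfap3 (0.992) and Smad1 (0.991). Ugt2b34 averaged 7.12, 28.7 and 745 CPM in controls, at 2 days and at 7 days, far larger relative steps than those of Klf4. Ugt2b34 and Naip5 belong to families of similar copies, so their counts are uncertain. An r over 0.95 was common: 2128 genes reached it with Hnf4g, 1800 with Klf4, 1434 with Gata6, 1255 with Hnf4a, 752 with Gata4 and 573 with Klf5. Cdx2 had 1 such gene, Prelid1 (0.951), followed by Dctn5 (0.947) and Tpst2 (0.929).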

How the data were processed

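RNA was measured in 9 samples, 3 per group, grouped by their titles. Per the labels' protocols, libraries of poly(A) RNA were built with a NEBNext Ultra II kit of the form that leaves strand unmarked. The authors deposited raw counts (whole reads for each gene). Per the submitters' processing notes the tools were STAR 2.7.0e, featureCounts and DESeq2 with builds mm10 and GRCm38. The sources used here give no strand setting and no annotation release. Of 21253 gene IDs 21236 matched GENCODE M21, which gave symbols, coordinates and exon lengths, and 0 table columns were left unmapped.

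Counts were filtered with filterByExpr (12535 genes kept), scaled with TMM and tested by the quasi-likelihood method of edgeR 4.0.16 (R 4.3.3) with group alone. The TMM factors of controls were 1.073 to 1.125, those of 2-day samples 1.093 to 1.117 and those of 7-day samples 0.785 to 0.8735. Calls needed a Benjamini-Hochberg adjusted p under 0.05 over all genes, two-sided. The SE was the absolute log2 change over the square root of F. CPM used the TMM-scaled library size. Ratios within pairs were compared by exact permutation tests, adjusted over 9 tests. A ratio of Cdx1 over Cdx2 was planned and not run, since Cdx1 had 0 counts in controls. Motifs were searched in the 250 bases before each start.

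The members and lists were chosen with earlier results of these data known. Named genes were the members, their 3 nearest genes by r with at least 5 CPM in the highest group, and per list the called genes with at least 5 CPM in the higher group and the largest changes: at most 3 rises and 2 falls at 7 days, and 2 of each at 2 days. Apc and Wnt targets were added as a check of the labels, and Pdx1, Sox2, Barx1 and Cdx4 were named after their values were seen. A few genes that these rules would name are not reported here. Replicates differed beyond sampling noise (chi-square per degree of freedom 4.24 to 38.3 over genes with at least 10 counts). The testing code was tested on simulated data. Alternatives used DESeq2 1.42.0, limma 3.58.1 with voom, other scalings and filters, only the 2 groups compared, a replicate block and leaving out each sample.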

Additional observations from a re-analysis of the deposited data

Results flagged for a closer look

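Effects at 2 days and 7 days, against the same controls, pointed in opposite directions and differed in edgeR's test of 7 against 2 days for 24 of the 131 members and listed genes tested, and both effects were called for 6 of these 24. No such count was made over all 12535 genes, of which 79.1% were called between 7 and 2 days. Values follow for Gata6, the member among the 24, and for the listed genes among them that the naming rule took. Prdm1 and Vdr, whose values are given above, were among the 6. For Gata6 the effect at 7 days minus that at 2 days was 1.96 on the log2 scale (adjusted p = 7.2e-08), with -0.20 at 2 days, which did not pass the test, and 1.76 at 7 days. For Maf it was 3.08 (adjusted p = 2.8e-11) and for Cdhr2 3.18 (adjusted p = 7.7e-12), both called lower at 2 days and higher at 7 days. For Ccnd2 it was 0.63 (adjusted p = 2.1e-06), also with both calls. For Klf7 it was 1.67 (adjusted p = 3e-08) and for Cdkn1a 3.73 (adjusted p = 1.7e-12), where the 2-day values of -0.17 and -0.36 did not pass the test, although that of Cdkn1a passed under 8 of 19 alternatives.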

How the results depend on the processing

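Of 396 member values under 19 alternatives, 386 kept direction and side of the threshold, 9 gained a call, 1 lost it and 0 reversed. Gata6 was not in the fit of genes with a mean of at least 5 CPM. The 2-day change of Gata4 passed with library size alone (adjusted p = 0.04), no filter and without 7-day replicate 1 (each just under 0.05), only the 2 groups compared (0.044) and the replicate block (0.012), against 0.1 in the fit reported. Without single 2-day or control samples its adjusted p was 0.096 to 0.3. The block raised the calls at 2 days to 4039 of all genes, against 2969, and called no other member differently. Correlations of deviations from the group mean ran from -0.13 to 0.48 between same-numbered samples and from -0.44 to 0.17 between unlike-numbered ones. Whether replicate numbers pair the samples was not tested. At 7 days against 2 days, Cdx2 was -0.53 with library size alone and -0.24 with upper quartiles (adjusted p = 0.0055). Leaving out single samples kept every member call except that of Gata4. It moved the 7-day change of Hnf4g between 4.64 and 4.94 and that of Hnf4a between 2.51 and 2.64. Hnf4g over Hnf4a at 2 days against controls, 0.02, ranged from -0.06 to 0.12 and so changed sign. Falls at 2 days numbered 809 over all genes without control replicate 2, against 1333. Other changes of sign were of values near 0 or under another scaling. Cdkn1b at 7 days against controls was -0.39 with library size alone, -0.09 with upper quartiles, -0.01 in the 2 groups alone, and -0.02, -0.00 and -0.01 without control replicate 1, control replicate 2 and 7-day replicate 3. Ccnd2 was -0.10 with library size alone. At 7 days against 2 days, Cd14 was -0.32 with library size alone and -0.02 with upper quartiles. Foxa3 there was 0.03 with DESeq2 size factors, 0.01 with a mean of at least 5 CPM, 0.04 by DESeq2's Wald test, 0.10 without 2-day replicate 1 and 0.11 without 7-day replicate 3. Scaling moved all genes together by construction. The cause of the other changes was not tested. Counts limit Cdx1 (0 to 3 per sample) and Gata6 (31 to 140).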

Other observations

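Of 6 ileal bile acid genes 4 were tested, of which 3 rose at 2 days and all 4 at 7 days in edgeR. Shares called higher among all genes tested were 13.1% at 2 days and 40.5% at 7 days. Fgf15, the hormone that bile acids induce in ileum, averaged 6.51 CPM in controls, 12.6 CPM after 2 days and 23.2 CPM after 7 days (log2 0.95 ± 0.11 and 1.84 ± 0.11, edgeR adjusted p = 1.2e-05 and 3.4e-10). Slc51a, a subunit of the bile acid exporter of the basal membrane, averaged 27.0 CPM at 7 days against 0.122 CPM in controls (7.72 ± 0.18, adjusted p = 1.2e-14). Fabp6, the ileal bile acid carrier, had 1 count in controls and 0 counts at 2 days and at 7 days, and was named after its values were seen.

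Of 12 posterior position genes, mostly HOX genes, 2 passed the filter. Hoxa13, named after its values were seen, averaged 1.05 CPM at 7 days against 0.0771 CPM in controls (log2 3.68 ± 0.40, edgeR adjusted p = 5.1e-07).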
